A study of Mus musculus with 8 samples.

Results

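AMPA receptors carry most of the fast excitatory current in the brain, and the genes described here encode their pore-forming subunits and the membrane proteins that travel and gate with them. The set holds 10 genes chosen by symbol, without regard to their values: the 4 subunit genes Gria1, Gria2, Gria3 and Gria4, the type I TARP genes Cacng2, Cacng3, Cacng4 and Cacng8, the type II TARP gene Cacng7, and the cornichon gene Cnih2. Each of the 10 had an entry among the 14353 genes of the table, and each was over 1 CPM (the read count scaled to library size) in at least 3 libraries, which was required of a gene to be tested. Cacng8 met that requirement through its INPUT libraries, since only 1 of its TRAP libraries was over 1 CPM.

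RNA was sequenced from the ventral pallidum (VP), a basal forebrain region in which glutamatergic neurons are a minority among GABAergic ones. The mice were homozygous for VGluT2-Cre, in which Cre follows the vesicular glutamate transporter gene Slc17a6, and heterozygous for the RiboTag allele of Rpl22, which puts an HA tag on ribosomes of cells that have expressed Cre. They were untreated, and none lacked either allele. TRAP (translating ribosome affinity purification) is the mRNA pulled down with the HA tag and INPUT is labelled as the mRNA of the same lysate before the pulldown, so that each of 4 pools gave 1 library of each fraction. The pools held 7 to 11 mice of both sexes each, 15 males and 23 females in all, aged 9 to 12 weeks in VP1.6 and 10 to 16 weeks in VP2.2, VP2.6 and VP2.11. The fractions address which ion channel and receptor genes are being translated in VP glutamatergic neurons. The punch can take in neighbouring striatum, and a difference between fractions in such bulk RNA cannot separate fewer cells of a type from less RNA in each cell.

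An AMPA receptor is a tetramer of GluA subunits, and its makeup sets how much calcium it passes, how fast it closes and how strongly internal polyamines block it. TARPs (transmembrane AMPA receptor regulatory proteins) bind the assembled receptor, carry it to the surface, anchor it to PSD-95 and slow its closing, and cornichons help it leave the endoplasmic reticulum and slow its closing further. GluA2 is the subunit that makes the receptor nearly impermeable to calcium, because the enzyme ADAR2 rewrites a glutamine codon of its pore, at the Q/R site, into one read as arginine.

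Editing at that codon, rather than the codon in the genome, sets the Gria2 transcript apart from its relatives. The stretch around it is shown for the 4 subunit genes, read from the GENCODE M21 transcripts in the coding direction, with the codon in capitals. Each stretch of 30 bases lies in coding exon 11 of its transcript. It sits at chr11:57243082-57243111 (plus strand) in Gria1, chr3:80706896-80706925 (minus strand) in Gria2, chrX:41610253-41610282 (plus strand) in Gria3 and chr9:4464122-4464151 (minus strand) in Gria4, all on GRCm38.
Gria1: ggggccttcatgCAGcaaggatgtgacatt
Gria2: ggtgcctttatgCAGcaaggatgcgatatt
Gria3: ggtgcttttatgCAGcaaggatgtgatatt
Gria4: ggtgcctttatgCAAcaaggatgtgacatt
The capitals are codon 600 in Gria1, 607 in Gria2, 612 in Gria3 and 608 in Gria4, counted from the start codon. Against the Gria2 stretch, that of Gria1 differed at 4 bases, that of Gria3 at 2 and that of Gria4 at 3. The genome encodes glutamine there in each gene, and whether the RNA of these libraries was edited was not measured.

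The GluA2, GluA3 and GluA4 transcripts rose in TRAP against INPUT by 1.89-fold, 2.74-fold and 1.88-fold, whereas the TARP transcripts Cacng3 and Cacng4 were 1.9-fold and 2.0-fold lower and Cnih2 was 1.67-fold lower. Without the pool as a block, limma called 3 of the 10 genes higher in TRAP and 3 lower at an adjusted p under 0.05, beside 23.2% of the 14249 tested genes called higher and 24.8% called lower. With each pool as a block it called 3 higher and 2 lower, beside 15.4% and 16.8% of all genes, and Cnih2 was the gene whose call was lost. Unless the block is named, the SEs and limma adjusted p-values below come from the fit without it, which ignores the pairing. Both counts without the block, 3 and 3, were the same without pool VP2.2, and with the block 2 were higher and 2 lower. Every TRAP library lay over every INPUT library for 3 of the 10 and under it for another 3, beside 23.3% and 24.4% of all genes. The count of called genes was therefore near the background, and what the data hold about this set lies in its members: the 4 subunit genes had a median difference of 0.92 on the log2 scale with 3 called higher and 0 lower, the 5 TARP genes a median of -0.58 with 0 higher and 2 lower, and all genes a median of -0.05. With the exon length trend taken out, 1 subunit gene, Gria3, was called higher, with or without the block. Over all 14249 tested genes that setting called 5600 in either direction, and 4561 with the block.

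**Figure D1:**
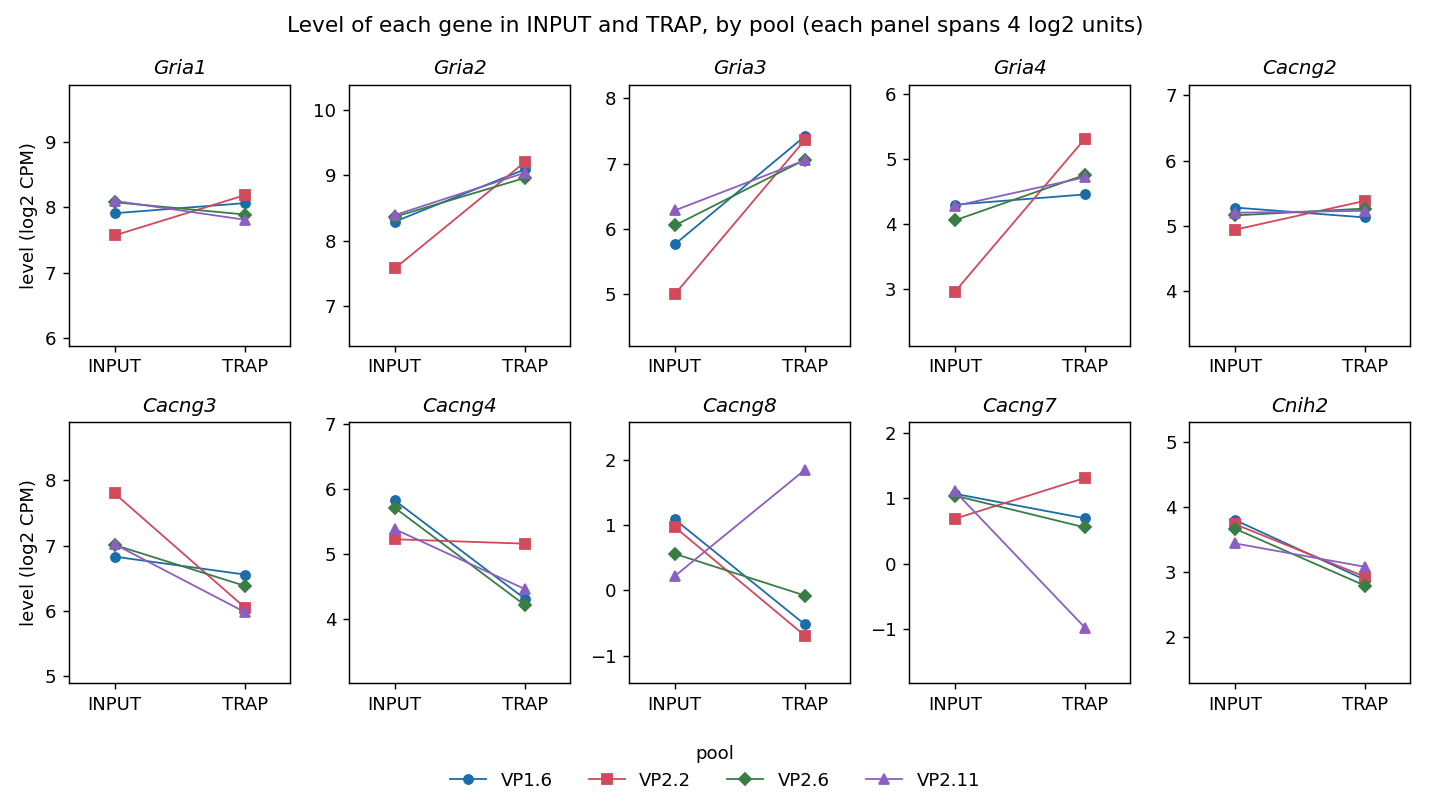
Level of each of the 10 genes (log2 CPM) in the INPUT and TRAP library of each pool, a line joining the 2 libraries of a pool and each panel spanning the same 4 log2 units. The lines of Gria2, Gria3 and Gria4 go up in the 4 pools and those of Cacng3, Cacng4 and Cnih2 go down in the 4, while VP2.2 has the lowest INPUT point in each Gria panel and the highest in that of Cacng3.

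Gria1 (ENSMUSG00000020524, chromosome 11:57011387-57330244) encodes GluA1, the subunit long studied for its insertion into synapses during plasticity. It stood at 268, 291, 237 and 224 CPM in the TRAP libraries of VP1.6 and then VP2.2, VP2.6, VP2.11, the order of all values by pool. In INPUT it stood at 241, 190, 270 and 274 CPM. The fractions overlapped, with TRAP higher in 2 pools and lower in the other 2. Its log2 difference was 0.07 ± 0.15 (SE, n = 4 pools; limma adjusted p = 0.71), with a 95% interval of -0.27 to 0.41, and it was -0.11 without VP2.2.

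Gria2 (ENSMUSG00000033981, chromosome 3:80681450-80802835) encodes GluA2, the edited subunit described above. TRAP held 546, 590, 498 and 526 CPM and INPUT 313, 190, 329 and 335 CPM. The lowest TRAP library was well over the highest INPUT library, and the TRAP libraries were close to each other. TRAP was higher by 0.92 ± 0.19 on the log2 scale (limma adjusted p = 0.0026), by 0.60 to 1.63 in single pools. Gria2 has the longest annotated exons of the set, 15548 bases in the union of its transcripts, while its longest transcript has 10371. When the trend of the difference with that union length over all genes was taken out, its difference was 0.32. The call was then lost (limma adjusted p = 0.27, and 0.19 with the block). Whether a trend on another length would take it away was not tested.

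Gria3 (ENSMUSG00000001986, chromosome X:41400854-41678601), which encodes GluA3, showed the largest rise of the set. Its TRAP values were 171, 165, 133 and 133 CPM and its INPUT values 54.2, 31.8, 66.2 and 77.7 CPM. The fractions were far apart, and the 4 pools moved the same way by 0.77 to 2.37 on the log2 scale. The fitted difference was 1.45 ± 0.25 (limma adjusted p = 0.001), and the call held in each of the 17 alternative settings tried.

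Gria4 (ENSMUSG00000025892, chromosome 9:4417896-4796234) encodes GluA4, known for fast-closing receptors. TRAP held 22.0, 39.7, 27.0 and 26.4 CPM and INPUT 19.7, 7.79, 16.7 and 19.4 CPM. The lowest TRAP value was just above the highest INPUT value, and VP2.2 held both the highest TRAP and the lowest INPUT value. TRAP was higher by 0.91 ± 0.30 on the log2 scale (limma adjusted p = 0.028), and by 0.43 without VP2.2 (limma adjusted p = 0.047, and 0.19 with the block). Without VP2.6 the adjusted p was 0.084 (0.065 with the block), and with the exon length trend taken out the difference was 0.67 (0.077, and 0.088 with the block).

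INPUT of VP2.2 held the least of each of the 4 subunit transcripts among the INPUT libraries and the most Cacng3. In the same library Slc17a6, the vGluT2 gene itself, was 1.01 below the mean of the other 3 INPUT libraries on the log2 scale. Across genes, the TRAP and INPUT deviations of VP2.2 ran in opposite directions (correlation of -0.667), so the level in 1 of its libraries may not stand for the tissue alone. Whether the makeup of that tissue set these values was not tested.

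Among the type I TARPs, Cacng3 and Cacng4 were lower in TRAP, Cacng2 was not called, and Cacng8 was too scarce to place. Cacng2 (ENSMUSG00000019146, chromosome 15:77991748-78120028) encodes stargazin, the founding TARP. It read 35.0, 41.7, 38.4 and 37.5 CPM in TRAP and 38.9, 30.7, 35.7 and 36.8 CPM in INPUT. These ranges overlapped throughout, and the log2 difference of 0.11 ± 0.13 (limma adjusted p = 0.52) had a 95% interval of -0.18 to 0.39.

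Cacng3 (ENSMUSG00000066189, chromosome 7:122670492-122769393) encodes the TARP gamma-3. Its TRAP values were 94.1, 66.2, 83.4 and 63.1 CPM. In INPUT it reached 114, 223, 129 and 130 CPM, each above the highest TRAP library. TRAP was lower by 0.27 to 1.75 on the log2 scale in single pools. The log2 difference was -0.92 ± 0.22 (limma adjusted p = 0.006), 1.9-fold lower, and the call held in each of the 17 alternatives.

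Cacng4 (ENSMUSG00000020723, chromosome 11:107732357-107794557) encodes gamma-4, a TARP also known from oligodendrocyte precursors and developing brain. It read 19.9, 35.7, 18.6 and 22.0 CPM in TRAP and 56.5, 37.4, 52.3 and 41.6 CPM in INPUT. The fractions did not overlap, but the 2 libraries of VP2.2 were nearly level while the other 3 pools were clearly lower in TRAP. Its fitted difference was -1.0 ± 0.22 (limma adjusted p = 0.0044). With the block, the adjusted p was 0.077 without VP1.6 and 0.073 without VP2.6, where the difference was -0.83 in both.

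Markers of several cell types moved the same way as Cacng4 and Cacng3. Lower in TRAP were 7 of 8 striatal medium spiny neuron markers and 3 of 6 GABAergic ones, with 0 higher. So were 4 of 6 astrocyte and 5 of 5 microglial markers (3 with the block), again with 0 higher. Of 5 oligodendrocyte markers 4 were called lower in TRAP, with their summed level at 931 to 1706 CPM in TRAP and 3804 to 4266 CPM in INPUT. The exception was Mag, which was called higher without the block. Of 7 precursor markers 4 were lower and 1, Cspg4, was higher, at 37.2 to 73.8 CPM summed in TRAP and 81.0 to 132 CPM in INPUT. Pdgfra, the defining precursor marker, read 9.28 CPM in TRAP and 10.8 CPM in INPUT on average (log2 difference -0.28, limma adjusted p = 0.57). The part of any of these cell types in the TARP differences was not tested.

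Cacng8 (ENSMUSG00000053395, chromosome 7:3390683-3415648), the gene of the hippocampal TARP gamma-8, was near the lower limit of detection. TRAP held 0.696, 0.618, 0.947 and 3.61 CPM and INPUT 2.13, 1.96, 1.48 and 1.16 CPM. TRAP was under INPUT in 3 pools and over it in VP2.11, whose TRAP library was the highest of the 8. Over the 4 pools the log2 difference was -0.57 ± 0.55 (limma adjusted p = 0.41). Without VP2.11 it was -1.31 (limma adjusted p = 0.017, and 0.17 with the block).

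The type II TARP gene Cacng7 (ENSMUSG00000069806, chromosome 7:3332955-3368221) lies on the same strand as Cacng8 with 22461 bases between them, and was likewise scarce. It stood at 1.62, 2.48, 1.47 and 0.506 CPM in TRAP and 2.10, 1.61, 2.06 and 2.16 CPM in INPUT. The TRAP library of VP2.11 was here the lowest of the 8, the reverse of Cacng8. The log2 difference was -0.58 ± 0.47 (limma adjusted p = 0.32), and without VP2.11 it was -0.079. Multiplied by the read totals worked out for VP2.2 and VP2.6, these TRAP values come to about 8 and 12 reads of Cacng8 and 33 and 19 reads of Cacng7. These are estimates, since a shift of a gene's values shared by both libraries of a pool would alter them.

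Cnih2 (ENSMUSG00000024873, chromosome 19:5092868-5098521) encodes the cornichon best known from hippocampal AMPA receptors. TRAP held 7.37, 7.61, 6.92 and 8.46 CPM and INPUT 13.9, 13.3, 12.7 and 10.9 CPM. The 4 pools were lower in TRAP, by 0.36 to 0.92 on the log2 scale, and the fractions did not overlap. Its log2 difference was -0.74 ± 0.16 (limma adjusted p = 0.004), but with the block the adjusted p was 0.061, and with the exon length trend taken out the difference was -0.27 (0.33, and 0.45 with the block).

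**Figure D2:**
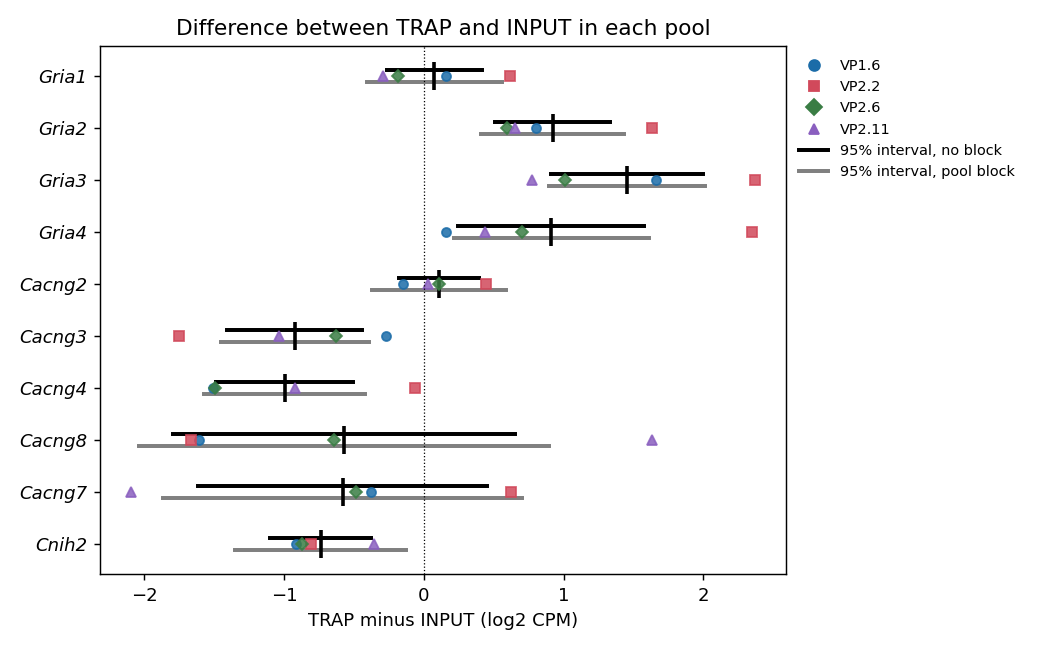
TRAP minus INPUT (log2 CPM) of each gene in each pool, with the fitted difference as a vertical tick and its 95% interval from limma without the pool block (black) and with it (grey). The intervals of Gria2, Gria3 and Gria4 lie above 0 and those of Cacng3, Cacng4 and Cnih2 below it in both fits before adjustment over genes, and the points of Cacng8 and Cacng7 from VP2.11 are the farthest from their own gene's tick.

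Subunit makeup was read as each gene's share of the summed level of the 4 Gria genes, in CPM per kilobase of annotated exon. Gria1 took 44.2%, 44.2%, 44.05% and 41.9% in TRAP and 58.1%, 65.3%, 59.4% and 58.3% in INPUT, a mean of 43.6% ± 1.12 (SD, n = 4) against 60.3% ± 3.42. Gria2 took 36.0% ± 1.57 in TRAP and 27.7% ± 1.65 in INPUT, and Gria3 15.7% ± 1.05 and 8.44% ± 1.44. The fractions were apart for these 3 genes, with the Gria1 share lower and the Gria2 and Gria3 shares higher in TRAP in the 4 pools. The exact two-sided permutation p was 0.0286 for each, the smallest that 4 libraries against 4 can give, and 0.0381 after Benjamini-Hochberg adjustment over the 4 shares. That test ignores the pairing and treats the libraries as exchangeable. Across genes, libraries of 1 pool deviated in opposite directions (correlations of -0.755 to -0.503), so its p can be too small, here and for the ratios below. For Gria4 the shares were 4.70% ± 0.94 and 3.65% ± 0.84 and overlapped (exact p = 0.171).

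Which subunit came first depended on the length used. Per exon length Gria1 led in TRAP, whereas per longest transcript Gria2 had 39.5% and Gria1 34.7%, and per coding length Gria2 had 56.0% and Gria1 25.7%. With no division by length Gria2 had 55.5% and Gria1 26.1%. The exon length is the union over transcripts, 15548 bases in Gria2 and 9859 in Gria3. Their longest transcripts have 10371 and 5206 bases, so the union lowers the level of both per kilobase. The exon length trend was not taken out of the shares or of the ratios below.

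None of the 5 TARP shares passed its adjusted test. Cacng3 took 64.6% ± 7.69 of the summed TARP level in TRAP and 70.5% ± 8.35 in INPUT, Cacng4 15.9% ± 5.4 and 18.4% ± 5.78. The overlap of the fractions was wide for both (exact p = 0.371 and 0.6). Cacng2 took 13.6%, 17.7%, 16.1% and 18.2% in TRAP and 10.8%, 5.70%, 9.40% and 10.0% in INPUT. Its share was higher in TRAP in the 4 pools without overlap. The exact p of 0.0286, the smallest possible here, became 0.143 after adjustment over the 5 TARP shares. A share that reaches that smallest p alone among the 5 cannot pass the adjusted test, so the test cannot decide on the Cacng2 share. Cacng8 and Cacng7 each took under 2% on average in both fractions.

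**Figure D3:**
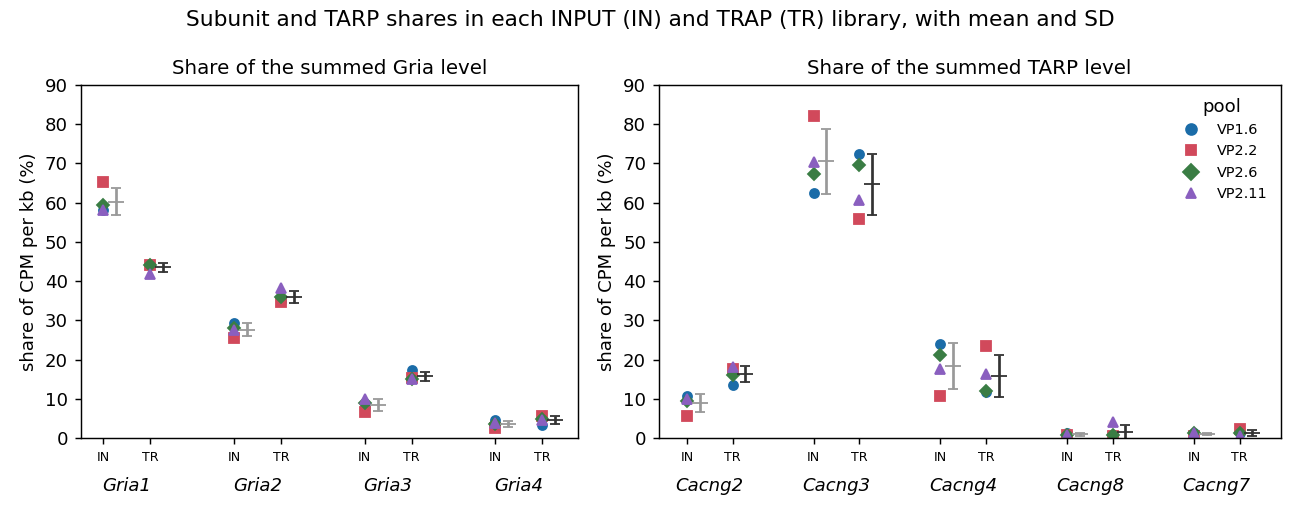
Share of each subunit gene in the summed Gria level (left) and of each TARP gene in the summed TARP level (right), as a percent of CPM per kilobase of exon, in each INPUT (IN) and TRAP (TR) library, with the mean and SD beside the points. The Gria1 points of TRAP sit between 41.9% and 44.2%, below INPUT at 58.1% to 65.3%, and Cacng3 holds most of the TARP level in both fractions.

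The balance between TARP and subunit transcripts also differed between fractions, with the exon length trend left in. Annotated exons came to 6043 to 15548 bases in the Gria genes, 2345 to 5510 in the TARP genes and 1369 in Cnih2. How much of the ratio differences goes with that length was not tested. The log2 ratio of the summed TARP level to the summed Gria level was -1.10, -1.35, -1.04 and -1.24 in TRAP and -0.064, 1.02, -0.13 and -0.23 in INPUT. TRAP was lower in the 4 pools, by 1.34 on average (exact p = 0.0286, and 0.0286 adjusted over the 2 ratios). Both terms moved, the Gria sum being 1.45-fold higher in TRAP and the TARP sum 1.74-fold lower. That TARP sum leaves out the type II TARP Cacng5. With Cacng5 added, an alternative chosen after seeing the data, the ratio difference was -1.26. The log2 ratio of Cnih2 to the Gria sum was -4.12 ± 0.20 in TRAP and -2.84 ± 0.42 in INPUT (exact p = 0.0286, and 0.0286 adjusted). Within pools the exact sign-flip test of 4 differences cannot go below 0.125, the value it gave for both ratios and the 3 shares.

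By level per kilobase of exon, the order in TRAP was Gria1 (42.2 CPM per kilobase), Gria2 (34.7), Cacng3 (27.6), Gria3 (15.3), Cacng2 (6.93), Cacng4 (6.72), Cnih2 (5.54), Gria4 (4.56), Cacng8 (0.625) and Cacng7 (0.622). Neighbours separated beyond their ranges after Cacng3, after Gria3 and after Gria4. That order holds for the exon length alone, since per longest transcript, or with no division by length, Gria3 came before Cacng3. In INPUT the order ran Cacng3 (53.6), Gria1 (40.3), Gria2 (18.8), Cacng4 (13.1), Cnih2 (9.28), Cacng2 (6.44), Gria3 (5.83), Gria4 (2.52), Cacng7 (0.812) and Cacng8 (0.718). The ranges of Cacng3 and Gria1, of Gria2 and Cacng4, of Cacng2 and Gria3 and of Cacng7 and Cacng8 overlapped there. Among all tested genes in TRAP, 90.8% lay below Gria1 on this scale, 89.2% below Gria2, and 13.3% and 13.2% below Cacng8 and Cacng7.

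The genes whose profile over the 8 libraries lay closest to that of Gria2, each centred on its own mean, were Abcd3, Kif2a and Ntrk2, at root mean square differences of 0.045, 0.0553 and 0.0574 on the log2 scale. Within the set the closest were Gria4 at 0.25 and Gria3 at 0.31.

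Of the other proteins found in native AMPA receptor complexes or in their assembly, 21 of the 22 genes listed were tested (Shisa8 had no entry), and 12 were called higher and 4 lower in TRAP without the block, beside 23.2% and 24.8% of all genes. With the block 6 were higher and 3 lower, beside 15.4% and 16.8%. Their median log2 difference was 0.48, and 7 were called higher without VP1.6. Shisa6, an auxiliary subunit that keeps receptors at the synapse, rose by 1.58 ± 0.28 (limma adjusted p = 0.0013), from 3.49 to 10.0 CPM on average. Nrn1, whose product neuritin copurifies with the receptor, rose by 1.42 ± 0.14 (8.4e-05), Prrt1 (also SynDIG4) by 1.29 ± 0.20 (6.4e-04) and Olfm1 by 1.12 ± 0.14 (2.3e-04). Sacm1l, a phosphoinositide phosphatase of the endoplasmic reticulum, rose by 1.07 ± 0.24 (0.0044), and the small GTPase gene Rap2b had a difference of -1.34 ± 0.16 (2.1e-04). The other type II TARP, Cacng5, was not called, at 17.1 CPM in TRAP and 12.9 CPM in INPUT, and the gamma subunit genes Cacng1 and Cacng6, which are not TARPs, had no entry.

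Of 30 genes for scaffolds, anchors and trafficking factors, 10 were called higher and 4 lower, beside 23.2% and 24.8% of all genes, and 8 and 2 with the block, beside 15.4% and 16.8%. The median was 0.16. The neuronal pentraxin family, which clusters AMPA receptors from outside the cell, rose: the membrane-anchored pentraxin receptor gene Nptxr by 2.19 ± 0.20 (limma adjusted p = 7.1e-05) and the secreted pentraxin genes Nptx1 by 1.93 ± 0.20 (1.0e-04) and Nptx2 by 1.55 ± 0.31 (0.0024). Nsf, an ATPase that binds the GluA2 tail, rose by 1.62 ± 0.20 (1.9e-04) and Grip1, a PDZ scaffold of GluA2 and GluA3, by 1.43 ± 0.23 (7.7e-04). Dlg4, the gene of the TARP anchor PSD-95, was lower, at -1.06 ± 0.15 (4.5e-04). The lower count was 7 without VP2.2, 2 without VP2.6, and 1 with the block and either VP1.6 or VP2.6 left out.

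Of 16 genes for editing and phosphorylation of the receptor, 9 were called higher and 2 lower, beside 23.2% and 24.8% of all genes, and 7 and 1 with the block, beside 15.4% and 16.8%. The median was 0.60. Among the genes named here the largest rises were in kinase genes, Prkca by 1.62 ± 0.25 (limma adjusted p = 6.0e-04), Camk2a by 1.00 ± 0.15 (5.2e-04) and Camk2d by 0.98 ± 0.16 (7.6e-04). Adar rose by 0.75 ± 0.12 (7.6e-04), and the kinase gene Fyn had a difference of -0.76 ± 0.14 (0.0013). Kinase genes went both ways, since the 2 genes called lower without the block were kinase genes too. Adarb1, which encodes the Q/R-site editor ADAR2 and is named here after its values were seen, read 87.6 CPM in TRAP and 56.9 CPM in INPUT, a log2 difference of 0.65 ± 0.20 (limma adjusted p = 0.021, and 0.057 with the block). The higher count was 3 with the exon length trend taken out, and 4 with the block and either VP1.6 or VP2.6 left out. The lower count was 1 without VP1.6 or VP2.6 and 0 with the block as well.

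**Figure D4:**
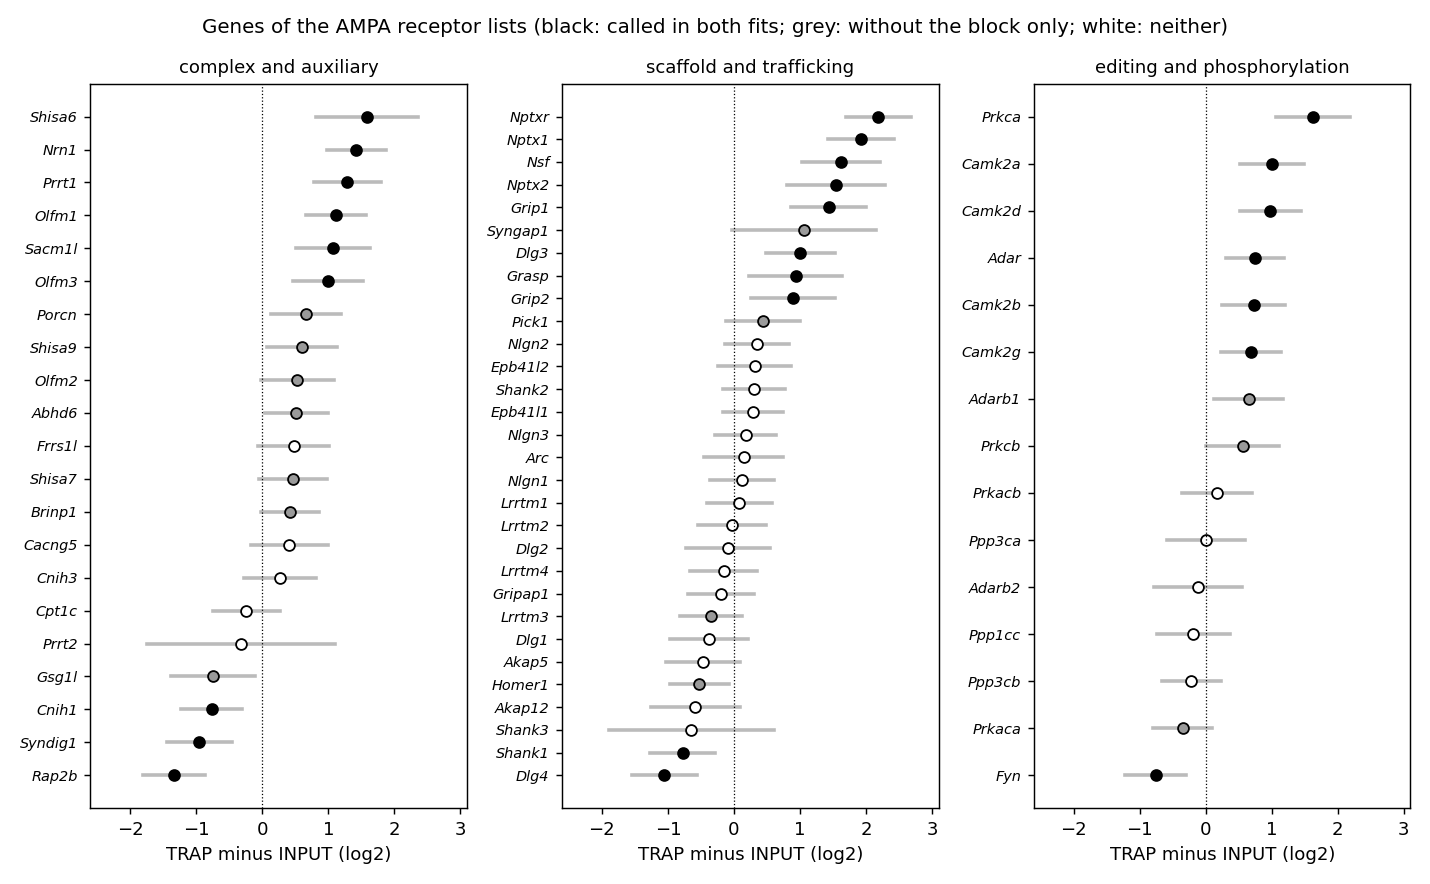
TRAP minus INPUT (log2) of the other genes of the AMPA receptor complex, of its scaffolds and trafficking factors, and of its editing and phosphorylation, with the 95% interval of limma with the pool block as a grey line. Black points were called in both fits, grey ones without the block alone and white ones in neither, and the black points to the right of 0 are led by Nptxr, Nptx1, Prkca, Nsf and Shisa6.

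The labelled cell type was checked against markers. Slc17a6 was at 143 CPM in TRAP and 25.9 CPM in INPUT on average, a log2 difference of 2.55 ± 0.25 (limma adjusted p = 8.8e-05). Of 3 glutamatergic markers 2 were higher and none lower. Markers of other cell types were present in TRAP, and which way they went differed by type. Slc32a1, the vesicular GABA transporter gene, had a difference of -1.26 (10.9 CPM in TRAP against 25.5), yet of 6 GABAergic markers 3 were lower and 0 higher, their sums overlapped (1143 to 1843 CPM in TRAP, 1185 to 1926 CPM in INPUT), and Gad1 was at 613 CPM in TRAP and 516 CPM in INPUT. Striatal medium spiny neuron markers, 7 of 8 lower, still summed to 506 to 804 CPM in TRAP against 1276 to 1957 CPM in INPUT. Of 6 astrocyte markers 4 were lower (Gfap, -1.65, 328 to 507 CPM summed against 498 to 686 CPM) and of 5 microglial ones 5, or 3 with the block (Cx3cr1, -1.97, 23.7 to 31.8 CPM summed against 78.8 to 126 CPM). Of 3 cholinergic markers 1 was called higher (0 with the block) and 1 lower, at 87.8 to 137 CPM summed in TRAP and 39.4 to 84.1 CPM in INPUT. Of 4 tested endothelial and mural markers Flt1 alone was called, higher, at 24.6 to 42.5 CPM summed in TRAP and 21.9 to 31.6 CPM in INPUT. The part of any of these cells in the differences of the AMPA receptor genes was not tested.

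Total counts per library were not used here. In VP2.2 and VP2.6, where the within-pool differences of 97.4% and 98.9% of low genes fell on whole reads, the pattern put depth at about 13.4 M and 12.8 M reads in TRAP and 40.6 M and 25.5 M in INPUT. In VP1.6 and VP2.11 rounding of the deposited values hides it, and depth is unknown there. Each library correlated at 0.939 to 0.990 with the mean of the others of its fraction, TRAP of VP2.11 being the lowest.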

How the data were processed

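The deposited table gives log2 CPM per gene for 8 libraries. The methods describe aligning reads with STAR 2.5.1a to an Ensembl mouse assembly, counting with featureCounts, scaling by TMM and applying voom. They name no adjustment of the values by pool, and whether one was made was not tested. The 2 libraries of a pool deviated in opposite directions in each pool (correlations of -0.755 to -0.503). The limit given for single libraries of VP2.2 therefore holds for single libraries of every pool, and for the comparisons of every TRAP with every INPUT library. STAR and limma are also named in the submitters' processing notes. INPUT of VP1.6 and both libraries of VP2.11 are rounded to 3 significant digits. The methods name an unbound fraction where the labels name Input, and they count more mice and samples than the labels, and the labels were followed. The authors' own comparison (fold changes, intervals, p-values, their mean) and a transcript count per gene are also in the table and were not used.

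Of 14398 entries, 45 repeated a gene and were dropped. The 14249 genes above 1 CPM in 3 or more libraries were compared with limma 3.58.1 (lmFit, eBayes with a trend, R 4.3.3) on the log2 values with the fraction alone as a term and no weights, whereas the study weighted libraries by quality, with Benjamini-Hochberg adjustment over all genes. Replicates are pools of mice. The fit without the block takes its p-values from the spread between pools within each fraction and ignores the pairing. Pools pair the libraries, since both fractions came from 1 homogenate, and the deviations of same-pool libraries correlated at -0.755 to -0.503 across genes, those of different pools at 0.046 to 0.437. With such opposite deviations within pools, the fit without the block can understate the error of a difference, and its p can be too small. A fit that adds the pool as a block was an alternative, and it called 4592 genes against 6830 without the block. Shares and ratios used CPM divided by the union of annotated exons in GENCODE M21 (GRCm38) and exact permutation tests. Whole reads were sought in within-pool differences, and scripts were tested on simulated data.

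The members and lists were chosen with earlier results of these data known. All 10 members are named, and of each list the genes called the same way in both fits, at most 6 by size of change, with 5 markers and those a count turns on, and the 3 profiles nearest Gria2. The values of 1 listed gene are not reported here, though the list counts include it. Promoters and proteins are not shown.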

Additional observations from a re-analysis of the deposited data

Results flagged for a closer look

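In 2 of 20 groups of 4 libraries 1 library lay far from the rest by Dixon's test at the 95% level, where chance gives about 1 in 20 groups. Gria2 in INPUT of VP2.2 was at 7.57 log2 CPM, with the other 3 INPUT libraries at 8.29 to 8.39. Cacng7 in INPUT of VP2.2 was at 0.69 log2 CPM, with the others at 1.04 to 1.11. Both values come from the same library, and the limit given above for single libraries of VP2.2 holds for them too.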

How the results depend on the processing

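Over 17 alternative settings (16 for Cacng7 and Cacng8, which gave no value at over 5 CPM), 140 member values kept direction and side of the threshold, 15 lost the call, 12 changed sign and 1 gained a call. Gria3 stayed between 1.02 and 1.68 and Cacng3 between -1.14 and -0.63. Gria1 was at -0.034 with array weights, -0.066 with quantile normalisation and -0.15 with the exon length trend taken out (-0.11 to 0.19 with 1 pool left out), and Cacng2 at -0.081 with that trend out (-0.0053 to 0.19). Quantile normalisation gave 0.12 for Cacng8 and 0.080 for Cacng7. None of these 4 genes was called in those settings, and the cause was not tested.

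With the replicate block (pool), 6 auxiliary genes were called higher, 2 scaffold genes lower and 1 editing or phosphorylation gene lower, and among the members only the call of Cnih2 was lost. In the sign-flip test within pools, which cannot pass the threshold, the differences stay -16.7, 8.34 and 7.29 percentage points (Gria1, Gria2 and Gria3 shares) and -1.34 and -1.28 on the log2 scale (TARP and Cnih2 ratios).

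Requiring a log2 difference of at least 1 left 3528 genes, 1 member higher and 0 lower, 5 auxiliary genes higher and 1 lower, 1 scaffold gene lower, and 3 editing or phosphorylation genes higher and 0 lower. With the exon length trend taken out, with or without the block, 1 member and 3 editing or phosphorylation genes were higher, and 9 scaffold genes were lower (7 with the block). That setting called 5600 genes in either direction (4561 with the block). Array weights gave 9 scaffold and 4 editing or phosphorylation genes lower, and centring on the median 1 of the latter.

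With 1 pool left out, with or without the block, 3232 to 6894 genes were called in either direction, 2 to 3 members were higher and 1 to 4 lower. Apart from the fit with the block over all pools, totals over all genes in this section are not split by direction. Its other counts of members and list genes therefore have no background of their direction beside them. The auxiliary list had 6 to 12 higher and 2 to 4 lower, the scaffold list 6 to 10 and 1 to 7, and the editing and phosphorylation list 4 to 9 and 0 to 2. Leaving out a pool, the share differences ran from -17.6 to -15.2 points (Gria1), 7.61 to 9.23 (Gria2), 6.63 to 8.04 (Gria3), -11.2 to 0.87 (Cacng3), -7.49 to 0.80 (Cacng4), -0.32 to 1.05 (Cacng8) and -0.17 to 0.66 (Cacng7), and the ratios from -1.48 to -0.99 (TARP) and -1.52 to -1.04 (Cnih2). The shares and ratios lose their calls there because 3 libraries against 3 cannot go below an exact p of 0.1. With Cacng5 added to the TARP sum, an alternative chosen after seeing the data, Cacng5 took 9.49% ± 0.61 in TRAP and 4.42% ± 1.02 in INPUT.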
